A study of Mus musculus with 6 samples.

Results

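The immunity-related GTPases described here were 9 genes, chosen by symbol: Irgm1, Irgm2, Igtp, Iigp1, Ifi47, Tgtp1, Tgtp2, Gm4951 and Gm12250. They were 9 of the 54532 genes in an RNA-seq table of mouse vascular smooth muscle cells, and all 9 were found. They were chosen with earlier results of these data known. The cells were wild-type and carried an adenoviral vector with either a control plasmid (Ad-Con, 3 libraries) or a plasmid to overexpress PDK4, a mitochondrial kinase that inhibits pyruvate dehydrogenase (Ad-PDK4, 3 libraries). According to the study they had been isolated from mouse abdominal aorta, and both groups had been treated with angiotensin II, which the labels do not mention. The comparison asks which genes respond to extra PDK4 in these cells. The study calls the libraries biological replicates but the labels do not say whether they came from separate cultures or animals, so p-values measure only the spread between these libraries, which may be technical.

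Immunity-related GTPases are large GTP-binding proteins that mouse cells make in response to interferons and that act against bacteria and parasites living inside vacuoles. The regulators Irgm1, Irgm2 and Igtp (also called Irgm3) reside on the membranes of the cell's own organelles and hold the effectors inactive there. The effectors, among them Iigp1 (Irga6), the Tgtp proteins (Irgb6), Ifi47 (Irgd) and the product of Gm12250 (Irgb10), load onto the membrane of a pathogen's vacuole and break it open. Interferon receptors signal through Janus kinases to STAT factors. In the promoters of interferon-responsive genes such factors bind a palindromic element called GAS and, together with IRF9, an element called ISRE.

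The DNA just before the start sites is shown for 6 members, because it holds the letters of these elements. RefSeq promoter windows on GRCm38.p6, from 250 bases before the start to 50 after it, were available for 7 of the 9 members. The stretches below are the last 110 bases before the RefSeq start, read 5′ to 3′ on the strand of the gene, with every GAS core (TTCNNNGAA) and ISRE core (GAAANNGAAA, on either strand) in capitals. On chromosome 11 they cover chr11:58199446-58199555 for Igtp and chr11:58214867-58214976 for Irgm2, both on the plus strand, chr11:48992247-48992356 for Tgtp1, chr11:49064213-49064322 for Tgtp2 and chr11:48871421-48871530 for Irgm1, all on the minus strand, and chr11:58183733-58183842 for Gm12250 on the plus strand.
Igtp: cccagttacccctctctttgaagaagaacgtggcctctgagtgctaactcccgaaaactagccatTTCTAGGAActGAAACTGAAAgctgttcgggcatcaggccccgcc
Irgm2: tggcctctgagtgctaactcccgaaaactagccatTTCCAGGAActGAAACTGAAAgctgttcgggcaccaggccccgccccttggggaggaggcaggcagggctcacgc
Tgtp1: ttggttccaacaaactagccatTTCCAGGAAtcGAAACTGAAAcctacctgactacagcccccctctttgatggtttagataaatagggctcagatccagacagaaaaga
Tgtp2: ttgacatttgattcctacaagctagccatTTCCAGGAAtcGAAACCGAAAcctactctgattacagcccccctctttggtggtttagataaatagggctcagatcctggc
Irgm1: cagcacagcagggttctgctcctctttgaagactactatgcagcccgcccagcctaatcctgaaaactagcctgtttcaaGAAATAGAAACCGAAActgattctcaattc
Gm12250: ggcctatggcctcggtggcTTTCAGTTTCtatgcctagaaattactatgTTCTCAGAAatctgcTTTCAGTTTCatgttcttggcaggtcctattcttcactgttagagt

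In Igtp, Irgm2, Tgtp1 and Tgtp2 the letters ran in the same order: a GAS core, 2 further bases, then an ISRE core. The ISRE core began 34 bases before the start in Igtp, 64 in Irgm2, 77 in Tgtp1 and 70 in Tgtp2. Irgm1 held a pair of ISRE cores that share bases, beginning 30 and 24 bases before the start, and no GAS core. Gm12250 held 2 ISRE cores on the opposite strand with a GAS core between them. The window of Ifi47 held neither set of letters. Of the 7 windows, 6 held an ISRE core and 5 a GAS core. Both strands of all 32851 RefSeq windows were searched, and 3.44% held an ISRE core, 8.3% a GAS core and 0.454% both. The arrangement of GAS core, 2 bases and ISRE core was noticed in the printed sequences and only then searched for. It stood in 5 of the 32851 windows, or 0.0152%, those of Igtp, Irgm2, Tgtp1, Tgtp2 and Gm12185, the last a further gene of the family. These windows are not 5 independent copies of the arrangement: the printed stretches of Igtp and Irgm2 share an unbroken run of 38 bases, those of Tgtp1 and Tgtp2 a run of 27, and Gm12185 shares 33 with Tgtp2. The longest run common to Igtp and Tgtp1 was 14 bases. A match of letters is not a measured binding site. The RefSeq start was the same base as the gene start of the deposited table for Igtp. It lay 3896 bases before that start for Gm12250, 1926 bases inside the gene for Tgtp1, 15359 bases inside it for Irgm2 and 65044 bases inside it for Gm12185.

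The table gave FPKM (fragment counts corrected for gene length and library size), from 17588942 to 21861872 reads per library. Pdk4 checks the labels and was lower under the overexpression label, at 10.0 ± 0.469 FPKM under Ad-Con and 7.48 ± 0.162 under Ad-PDK4 (mean ± SD, n = 3, log2 fold change -0.42, limma with Benjamini-Hochberg adjustment, adjusted p = 1.1e-03). It is not known whether transcripts of the plasmid enter this count, so each direction below is that of the label. Of 8 smooth muscle markers only Acta2, Smtn and Lmod1 passed the filter on low values. Acta2 was 78.0 against 36.2 FPKM, Smtn 8.32 against 8.44 and Lmod1 0.720 against 0.570. The others lay below the filter and were not tested. Of these, Mylk (0.756 against 0.123), Cnn1 (0.466 against 0.247), Des (0.186 against 0.0468) and Tagln (0.341 against 0.292) had lower means in Ad-PDK4. The defining marker Myh11 (0.0142 against 0.0456) had a higher mean there, on at most 10 reads in any library. Of 10 macrophage markers, Ptprc, C1qa, C1qb, Tyrobp and Itgam were at 0 in every library, and the summed list lay at 15.0 to 17.9 FPKM in Ad-Con and 5.91 to 7.52 in Ad-PDK4. That sum was mostly Cd68 (14.2 against 4.24 FPKM), while Lyz2 (1.51 against 1.98) and Csf1r (0.258 against 0.640) had higher means in Ad-PDK4. Their groups did not overlap, which held for 54.3% of all tested genes. Lyz2 did not pass the test (limma adjusted p = 0.079), and Csf1r lay below the filter and was not tested. The lymphocyte markers Ncr1, Nkg7, Cd3d and Cd3e were at 0 as well. The 5 fibroblast markers summed to 1416 to 1528 FPKM in Ad-Con and 758 to 847 in Ad-PDK4, most of it Col1a1 (1055 against 435), while Dcn went the other way (90.1 against 161) and Pdgfra was at 20.5 against 19.9. The 4 endothelial markers summed to at most 1.15 FPKM. In such bulk libraries fewer cells of a type and less RNA per cell cannot be told apart.

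All 9 GTPase genes rose in the libraries labelled Ad-PDK4. Together they summed to 51.6 ± 6.33 FPKM in Ad-Con and 586 ± 54.4 FPKM in Ad-PDK4 (n = 3 each), a ratio of 11.3. Counted as reads, the family had 3858, 3769 and 4305 in the Ad-Con libraries and 34923, 32840 and 48623 in the Ad-PDK4 libraries. A gene was called when its log2(FPKM + 0.1) differed at an adjusted p below 0.05 (limma, Benjamini-Hochberg over the 13423 genes with a mean of at least 0.5 FPKM) and by at least 2-fold. All 9 members passed the filter, Gm12250 only through its Ad-PDK4 libraries, and 9 of 9 were called higher, where 3.95% of all tested genes were called higher and 2.68% lower. The groups did not overlap for 9 of 9 members, against 54.3% of all tested genes. The members and the gene lists below were chosen with earlier results of these data known. Their counts therefore describe them and are no independent test. The median log2 fold change of the members was 5.20, and that of all tested genes -0.00309.

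**Figure D1:**
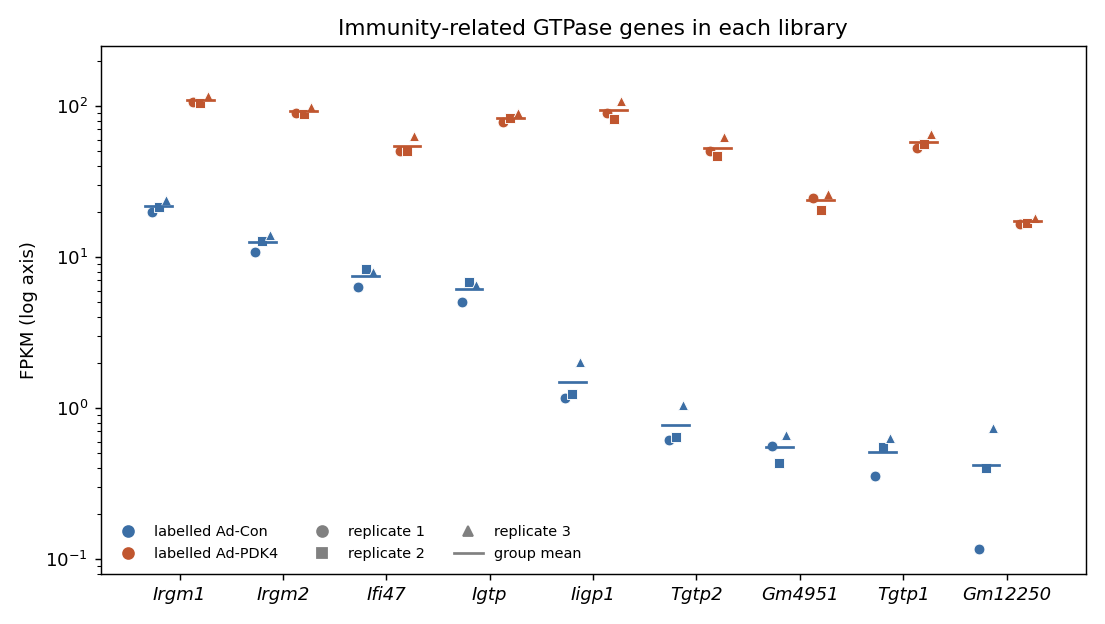
FPKM of each member (log axis) in each library, with the symbol giving the replicate number, the colour the labelled group and the short bar the group mean of 3 libraries. Every Ad-PDK4 library lies above every Ad-Con library, and the members spread from 0.116 to 23.9 FPKM in Ad-Con but only from 16.6 to 116 in Ad-PDK4.

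The regulators Irgm1 and Irgm2 were the most abundant members in Ad-Con, followed by the effector Ifi47 and the regulator Igtp. Irgm1, which guards Golgi and lysosomal membranes, stood at 19.9, 21.3 and 23.9 FPKM in Ad-Con and 107, 105 and 116 in Ad-PDK4. The groups lay far apart and the libraries of each close together. Its log2 fold change was 2.33 (SE 0.08, adjusted p = 4.5e-07 by limma), the smallest of the 9, on 2351, 2172 and 2517 reads against 11316, 10656 and 14948. Irgm2, a regulator at the Golgi, went from 10.8, 12.9 and 14.0 to 89.7, 88.2 and 99.1 FPKM, again with no library between the groups, a log2 fold change of 2.87 (95% confidence interval 2.65 to 3.10, adjusted p = 4.9e-07). Igtp, the regulator of the endoplasmic reticulum and lipid droplets, had 5.05, 6.84 and 6.52 FPKM in Ad-Con and 78.9, 83.2 and 89.3 in Ad-PDK4. It rose more than the other regulators, by a log2 fold change of 3.76 (3.50 to 4.02, adjusted p = 4.1e-07), and its interval did not overlap theirs.

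Apart from Ifi47, which started above Igtp, the effectors started lower than the regulators and rose further. Iigp1, the best studied vacuole-coating effector, stood at 1.16, 1.24 and 2.03 FPKM in Ad-Con and 89.8, 82.2 and 108 in Ad-PDK4. That took it from a trace to the level of Irgm2, with 5.92 on the log2 scale (SE 0.22, adjusted p = 9.7e-06 by limma), the 15th largest rise of all tested genes. Tgtp1, an effector that binds vacuoles of Toxoplasma early, had 0.353, 0.551 and 0.637 FPKM in Ad-Con and 52.4, 56.0 and 65.1 in Ad-PDK4. Its reads numbered 23, 31 and 37 against 3055, 3142 and 4612, and its log2 fold change of 6.59 (6.15 to 7.02, adjusted p = 6.2e-07) ranked 8th among all tested genes. Tgtp2, its neighbour and near copy, had 0.619, 0.640 and 1.05 FPKM in Ad-Con and 50.3, 46.6 and 62.1 in Ad-PDK4. Both Tgtp genes therefore ended close together, and Tgtp2 rose by a log2 fold change of 5.96 (5.47 to 6.44, adjusted p = 2.8e-06).

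Ifi47, an effector type GTPase, was present before the change. It had 6.34, 8.29 and 7.94 FPKM in Ad-Con and 50.4, 50.7 and 63.2 in Ad-PDK4. Its log2 fold change of 2.85 (2.55 to 3.15, limma adjusted p = 4.6e-06) lay near that of Irgm2 and below those of the other effectors. Gm4951, a predicted GTPase closely related to Iigp1, went from 0.557, 0.431 and 0.667 FPKM to 24.5, 20.4 and 26.3, a log2 fold change of 5.20 (4.85 to 5.55, adjusted p = 2.3e-07). Gm12250, the gene of Irgb10, which is known to help open bacteria for inflammasome sensing, had the widest relative spread in Ad-Con. It stood there at 0.116, 0.402 and 0.736 FPKM, from 3, 9 and 17 reads, and at 16.6, 16.9 and 18.2 FPKM in Ad-PDK4. The log2 fold change of 5.27 accordingly had the widest interval of the family (4.05 to 6.48, adjusted p = 5.7e-04). The table annotates this gene as a processed pseudogene of 1274 bases.

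**Figure D2:**
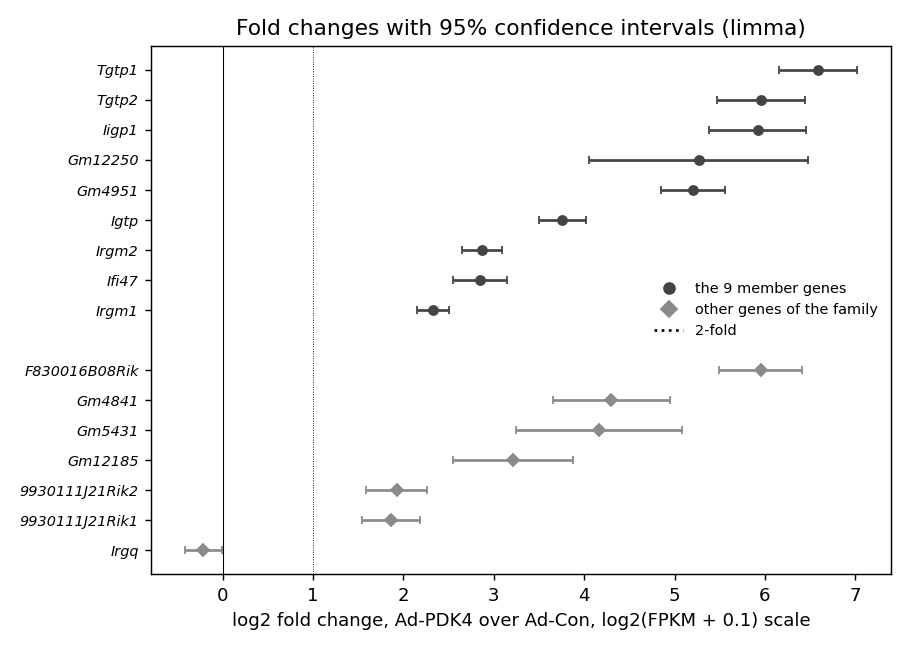
Log2 fold change with 95% confidence interval, from limma on log2(FPKM + 0.1) with 3 libraries per group, for the 9 members and for the 7 other genes of the family that passed the filter. The members run from 2.33 for Irgm1 to 6.59 for Tgtp1, and Irgq alone lies below 0.

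The sizes of the largest changes among the members depended on the pseudocount: with 1 in place of 0.1, Tgtp1 stood at 5.28, Tgtp2 at 4.93, Iigp1 at 5.26, Gm4951 at 3.99 and Gm12250 at 3.70, and all stayed past the test.

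The order of the levels changed with the label. In Ad-Con, Irgm1 stood above Irgm2, and Irgm2 above Ifi47 and Igtp, whose ranges overlapped. Iigp1 came next, followed by Tgtp2, Gm4951, Tgtp1 and Gm12250, where each overlapped its neighbour in the order. In Ad-PDK4, Irgm1, Iigp1, Irgm2 and Igtp formed a top group in which neighbours overlapped. Tgtp1, Ifi47 and Tgtp2 overlapped below it, Gm4951 lay under these and Gm12250 was lowest. Irgm1 made up 44.3%, 40.5% and 41.6% of the family's summed FPKM in the Ad-Con libraries and 19.1%, 19.1% and 17.97% in the Ad-PDK4 libraries. The 3 regulators together made up 77.3% to 79.6% in Ad-Con and 47.0% to 50.3% in Ad-PDK4. Iigp1 went from 2.86% to 16.0% of the sum of the group means and Tgtp1 from 0.994% to 9.88%. Within groups, replicate 3 of Ad-PDK4 was the highest for 9 of 9 members, and replicate 1 of Ad-Con the lowest for 8 of 9. The share of all tested genes for which this held was not computed, so it cannot be read as particular to the members. Some members also share sequence and are not separate readings. The places of Tgtp1 and Tgtp2 in these orders, and the shares of the sum, are therefore uncertain.

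Part of the values of a few members cannot be assigned to 1 gene. The coding sequences of Tgtp1 and Tgtp2 were identical at 99.7% of aligned bases in GENCODE release M21, and 73.1% of the 100-base stretches of the Tgtp1 transcripts occur in another gene, as do 76.8% of those of Tgtp2. Summed as 1 gene, the pair rose by a log2 fold change of 6.35. Exons of Tgtp1 also overlap those of Gm12185 on the same strand, over 6.96% of the exon bases of Tgtp1 and 3.99% of those of Gm12185. Exons of Igtp and Irgm2 overlap on the same strand, over 8.01% of the exon bases of Igtp and 4.39% of those of Irgm2, and their sum rose by 3.24 (an alternative added after seeing the data). Ifi47 shares 4.49% of its exon bases with Olfr56 on the same strand and 4.29% with Gm12188 on the opposite one, and whether counting used strand is not stated. Irgm1, Iigp1, Gm4951 and Gm12250 shared neither exon bases nor 100-base stretches with another gene. Iigp1 and Gm4951 were 88.0% identical in their coding sequences, yet no 100-base stretch was common to both. The table's length for Iigp1 was 3121 bases, while its exons in release M21 cover 5823, and FPKM depends on that length. Irgm2 and Igtp were 73.2% identical, and the remaining pairs lay between 57.7% and 68.8%.

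**Figure D3:**
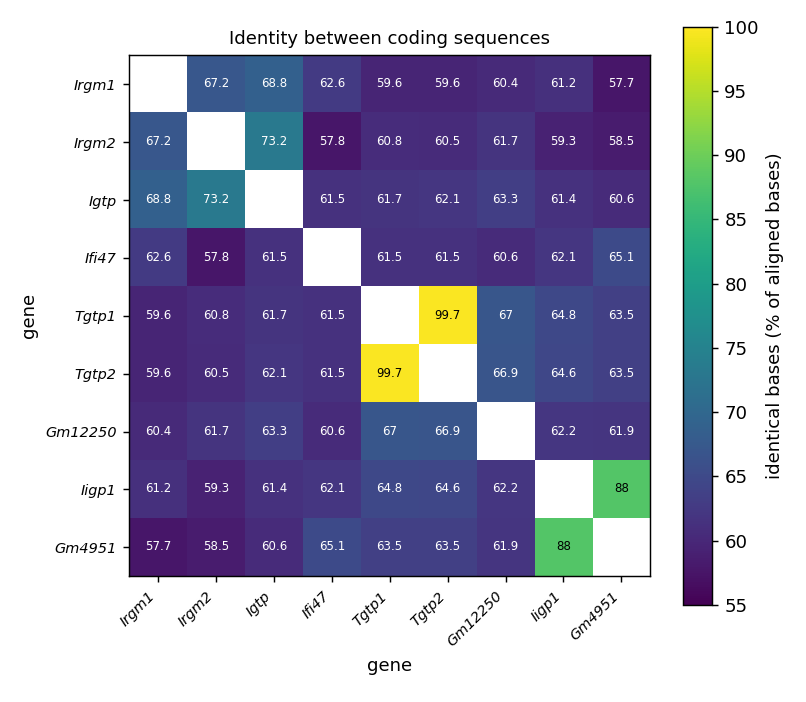
Identical bases between the coding sequences of each pair of members, as a percentage of aligned bases, with the whole transcript used for Gm12250. Tgtp1 and Tgtp2 reach 99.7%, Iigp1 and Gm4951 88.0%, and the remaining pairs lie between 57.7% and 73.2%.

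The 9 members lay in 3 blocks of the genome (GRCm38). Irgm1, Tgtp1, Tgtp2 and Ifi47 fell within chr11:48861968-49096974, a span of 235 kb. Gm12250, Igtp and Irgm2 fell within chr11:58187739-58222782, a span of 35.04 kb. Gm4951 and Iigp1 fell within chr18:60212080-60392627. Each block held rises of different size, from 2.33 to 6.59 in the first, 2.87 to 5.27 in the second and 5.20 to 5.92 in the third.

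Other genes within 100 kb differed between blocks. Around the first block 7 of 11 tested neighbours were called higher and none lower. Besides 4 further genes of the family these were Psme2b, a copy of the proteasome activator gene Psme2, at a log2 fold change of 1.26 (adjusted p = 2.4e-04 by limma), Olfr56 at 3.07 and Gm12188 at 4.25, of which the last pair overlap Ifi47 as given above. Of the 4 family genes, Gm12185 overlaps Tgtp1. Of the exon bases of Gm12188, 34.2% lie in Ifi47 on the opposite strand. On 0, 2 and 0 reads in Ad-Con, Gm12188 was at least 6.01-fold higher against a floor of 3 reads per library. Rack1, Trim41, Gm12184 and Trim7, on the outer side of Irgm1, ranged from -0.53 to 0.19 and were not called. Of these, Rack1 (-0.27) and Trim7 (-0.53) passed the adjusted p but not the fold. Around the second block 0 of 5 tested neighbours were called by limma, 3 had an unadjusted p below 0.05 and limma-voom called 0. They were Cnot8, Gemin5, Mrpl22, Zfp692 and Zfp672, with log2 fold changes from -0.14 to 0.40. Mrpl22, at 0.40, passed the adjusted p (2.1e-03 by limma) but not the fold. Around the third block 4 of 5 were called higher: Gm5970 at 4.05, Gm4841 at 4.30, F830016B08Rik at 5.96 and BC023105 at 5.03. Smim3 was at -0.22 and was not called, though it passed the adjusted p (0.037 by limma). Of the 11 called neighbours, 8 passed the filter only through their Ad-PDK4 libraries, and the sizes of their changes depended on the pseudocount. With 1 in place of 0.1, Gm12188 stood at 1.88, Olfr56 at 1.23, Gm5431 at 1.88, Gm12185 at 1.40, Gm5970 at 1.58, Gm4841 at 2.13, F830016B08Rik at 3.56 and BC023105 at 3.21, and all stayed past the test. The log2 fold change of Gm12188 was 4.99 without replicate 2 of Ad-Con.

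**Figure D4:**
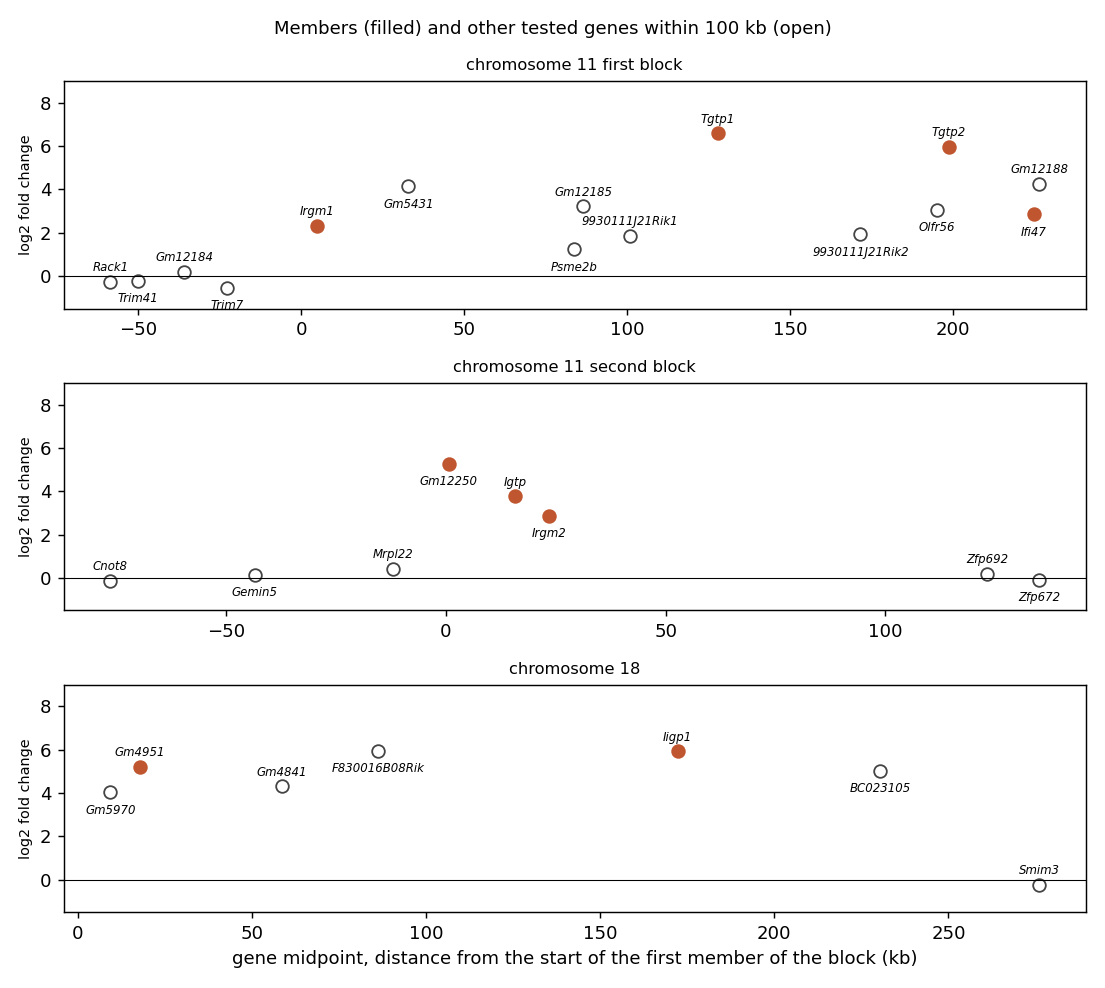
Log2 fold change (limma, 3 libraries per group) of the members (filled) and of the other tested genes within 100 kb (open), by the distance of the gene's midpoint in kb from the start of the block's first member. In the second block the 3 members stand at 2.87 to 5.27 while the 5 neighbours stand at -0.14 to 0.40.

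Among 8 further genes of the family, 6 of the 7 tested were called higher, with a median log2 fold change of 3.21 over the 7. F830016B08Rik, a predicted GTPase near Iigp1, had 8, 7 and 3 reads in Ad-Con and 759, 577 and 975 in Ad-PDK4, which is 0.0968 against 12.0 FPKM (log2 fold change 5.96, limma adjusted p = 4.9e-07). Gm4841 rose by 4.30, Gm5431 by 4.16 and Gm12185 by 3.21, and the paired genes 9930111J21Rik1 and 9930111J21Rik2, which contain more than 1 GTPase domain, by 1.86 and 1.93. F830016B08Rik, Gm4841, Gm5431 and Gm12185 passed the filter only through the Ad-PDK4 libraries. Gm12185 overlaps Tgtp1, as given above, so part of its value cannot be assigned to 1 gene. Of the 100-base stretches of 9930111J21Rik1, 70.5% occur in another gene, so its split from 9930111J21Rik2 is uncertain. Irgq, a distant relative not known to depend on interferon, was at 12.3 ± 1.10 FPKM in Ad-Con and 10.6 ± 0.897 in Ad-PDK4 (n = 3 each) and was not called (log2 fold change -0.21, 95% interval -0.42 to -0.01, limma adjusted p = 0.088). Irgc1, a testis gene, had at most 2 reads in any library.

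Upstream of these genes, the rises in the interferon signalling list were mostly those of transcription factors and feedback inhibitors. Of 16 genes 14 were tested, and 7 were called higher and none lower, with a median log2 fold change of 0.89. The interferon ligand genes were the 2 not tested. Ifng had 0 reads in all 6 libraries, and Ifnb1 had 0 in every Ad-Con library and 7, 5 and 5 in Ad-PDK4, at least 1.85-fold higher against a floor of 3 reads per library. That floor, the upper limit that a count of 0 leaves, covers counting error only.

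Of the receptor genes, Ifnar2 was called, going from 9.33 ± 0.189 to 21.9 ± 0.463 FPKM (n = 3 each, log2 fold change 1.22, limma adjusted p = 1.5e-06). Ifngr1 passed the adjusted p but not the fold, at 0.36. Ifnar1 at 0.04 (95% interval -0.10 to 0.18) and Ifngr2 at 0.06 (-0.10 to 0.22) did not pass the test. Of the kinases, Jak2 passed the adjusted p alone at 0.77, and Jak1 at 0.10 and Tyk2 at 0.20 passed neither.

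Most of the transcription factors were called. Stat2 went from 8.38 ± 0.187 to 52.1 ± 3.36 FPKM (n = 3 each, log2 fold change 2.62, limma adjusted p = 9.6e-08). Irf9, its partner on the ISRE, rose by 1.58 and Irf1, a factor that also binds such elements, by 1.35. Irf2, which can repress them, passed the adjusted p alone at 0.42. Of the feedback inhibitors, Usp18 rose by 2.47 to 87.6 FPKM, and Socs1, on 38 to 49 reads in Ad-Con and 80 to 113 in Ad-PDK4, by 1.02, just past the fold limit. Socs1 fell short of that limit at 0.93 without replicate 3 of Ad-Con, at 0.90 without replicate 2 of Ad-PDK4 and at 0.60 with a pseudocount of 1.

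The guanylate-binding proteins, a second family of interferon-induced GTPases that the immunity-related GTPases work with on vacuoles, rose too. Of 11 genes 8 were tested and 8 called higher, with a median log2 fold change of 4.04, or 4.12 with Gbp10, which had 1, 0 and 0 reads in Ad-Con, at its lower bound. Of the 8, 5 passed the filter only through their Ad-PDK4 libraries. Gbp2 rose from 11.4 ± 1.003 to 111 ± 8.80 FPKM (n = 3 each, log2 fold change 3.27, limma adjusted p = 1.1e-07), a level near that of Irgm1. Gbp3 rose from 6.94 ± 0.338 to 99.8 ± 7.35 FPKM (3.83) and Gbp7 from 2.06 ± 0.464 to 16.3 ± 1.52 FPKM (2.94). Gbp6 had the largest fitted rise at the pseudocount of 0.1, 5.29, from 5, 11 and 8 reads to 702, 600 and 1026. The ranking depended on the scale: with a pseudocount of 1 Gbp6 stood at 2.83, below Gbp3 at 3.67. Without a pseudocount the group means of Gbp6 differed 90.8-fold, and Gbp10 was at least 45.5-fold higher against a floor of 3 reads per library. That bound does not place Gbp10 above or below Gbp6.

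The Atg8 conjugation machinery, which marks vacuoles and helps both GTPase families find them, was close to the median of all genes. Of 12 genes, limma called 0, with a median log2 fold change of 0.018, 5 had an unadjusted p below 0.05 and limma-voom called 0. At the adjusted p alone Atg3 was higher (0.43), and Atg10 (-0.67), Gabarapl1 (-0.42), Map1lc3b (-0.27) and Gabarap (-0.23) were lower. Of all 13423 tested genes, whatever the fold, 2928 passed the adjusted p upward and 2798 downward. Under quantile normalization Gabarap was at -0.12 with a limma adjusted p of 0.084. Map1lc3a was at 68.5 ± 1.26 and 69.0 ± 6.60 FPKM (n = 3 each), with a 95% interval of the log2 fold change from -0.16 to 0.17. Of 5 genes for ubiquitin ligases and adaptors that act at coated vacuoles, 1 was called higher: Trim21, an antibody receptor and ligase, from 3.47 ± 0.202 to 16.2 ± 1.27 FPKM (n = 3 each, log2 fold change 2.19, limma adjusted p = 6.7e-07). Sqstm1, the adaptor p62, was at 640 and 596 FPKM (-0.11, adjusted p = 0.13), Nbr1 at 0.13 (adjusted p = 0.061) and Tax1bp1 at 0.26, the last past the adjusted p alone (6.2e-03).

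**Figure D5:**
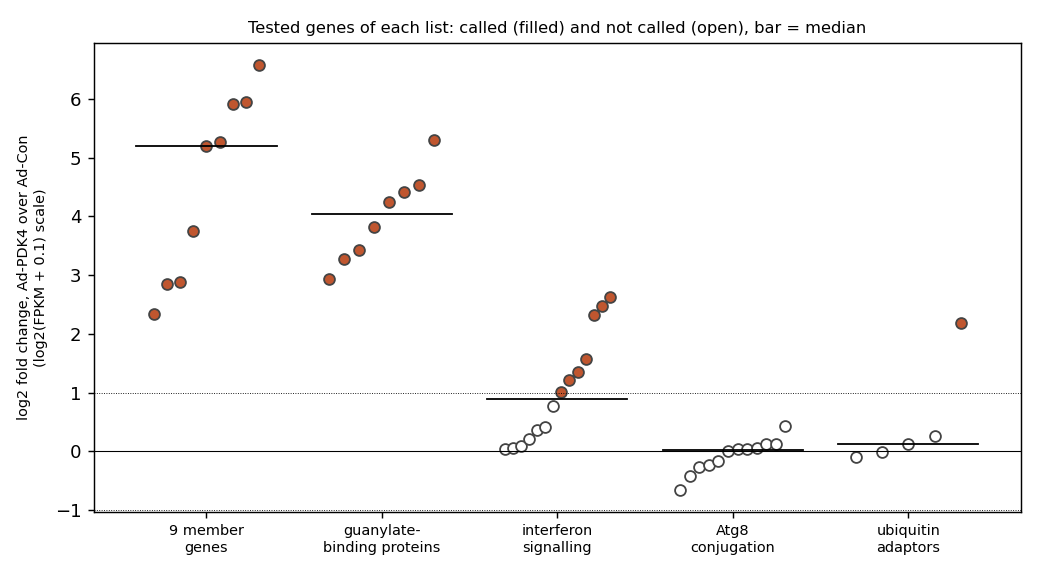
Log2 fold change (limma, 3 libraries per group) of every tested gene in the 9 members and 4 related lists, filled where called, with a bar at the median and dotted lines at 2-fold. The medians are 5.20, 4.04, 0.89, 0.018 and 0.13 from left to right.

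The 5 genes whose values over the 6 libraries lay nearest to the mean profile of the members, by Euclidean distance between centred log2 values, were Phf11d, Oas2, Isg15, Oasl2 and Mpeg1. All are genes known to respond to interferon or to act in innate defence. Phf11d, nearest at a distance of 0.252, went from 1.68, 1.85 and 2.34 FPKM to 50.6, 49.9 and 58.3. Isg15, a ubiquitin-like modifier, went from 7.28, 8.74 and 11.2 to 259, 268 and 276 FPKM. Oas2 and Oasl2, of the oligoadenylate synthetase family, rose by log2 fold changes of 4.52 and 4.18, and Mpeg1, a pore-forming protein, by 4.39. Of the tested markers named above, Acta2, Cd68 and Col1a1 were lower in Ad-PDK4 and Dcn higher. Mylk, Cnn1, Des and Tagln had lower means there and Myh11 a higher one, all of them untested. Lyz2 and Csf1r had higher means there, but Lyz2 did not pass the test and Csf1r was not tested. The part of these markers in the results was not tested.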

How the data were processed

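The deposited table gave FPKM per gene and library, which the authors computed without pooling replicates. The submitters' processing notes name CASAVA 1.8, fastp, HISAT2 2.0.5, featureCounts 1.5.0-p3, DESeq2 1.20.0 and the build GRCm39, but 98.3% of the 54409 gene identifiers found in GENCODE M21 were placed identically by it, and positions are therefore given on GRCm38. The labels name a SMARTER kit for the libraries and the study's methods a NEBNext Ultra kit. FPKM times gene length gave whole reads for 100% of values in each library (tolerance 0.01 reads). Library sizes behind the FPKM were already scaled between libraries. Replicates differed by more than counting noise in every pair.

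Groups came from the treatment labels and replicate numbers from the titles. FPKM was tested as log2(FPKM + 0.1) with limma 3.58.1 (R 4.3.3, trend and robust) on all 6 libraries without covariates, with Benjamini-Hochberg adjustment, after testing the code on simulated data. The study used DESeq2 on counts, which FPKM does not allow as the main test. Fold changes use that scale, which understates changes of low genes, and every adjusted p is limma's. Alternatives were other pseudocounts, filters, scalings and moderation, a block for the replicate number, leaving out each library, limma-voom on recovered reads, and summing overlapping or near-identical genes.

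The members and the gene lists were chosen with earlier results of these data known. Named were all members, Pdk4, the other genes of the family and those of interferon signalling (some listed genes are not reported here), the 3 most abundant genes and the largest rise and fall of the other lists, called genes within 100 kb, and the 5 nearest profiles. Gbp10, Map1lc3b, markers that were not at 0 and neighbours not called are not covered by this rule and were picked once their values had been seen. Coding sequences came from GENCODE M21 and were aligned with Biopython 1.88. Protein sequences were not used here.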

Additional observations from a re-analysis of the deposited data

How the results depend on the processing

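All 9 members were called higher in each of the 16 alternatives run. The median log2 fold change of the members was 3.70 with a pseudocount of 1, which shrinks low genes, and ran from 4.74 to 5.33 when 1 library was left out, lowest without replicate 1 of Ad-Con. A minimum mean of 5 FPKM, which tests fewer genes, gave 258 genes called higher, 114 genes called lower and 4 guanylate-binding protein genes called. A pseudocount of 1 left 153 genes called lower, and no filter gave 735 higher and 495 lower. Values near 0 changed sign. Under quantile normalization the log2 fold change of Ifnar1 was -0.0292 and the log2 fold change of Map1lc3a -0.0213, the latter -0.00015 with limma-voom. When 1 library was left out, the log2 fold change of Ifngr2 ran from -0.0123 to 0.113 and that of Map1lc3a from -0.0405 to 0.0864. The cause was not tested. Same-numbered libraries did not deviate together (correlations -0.046, -0.031 and -0.0013), and with a replicate block 9 members, 529 genes higher and 354 lower were called. Depth limits the members with under 60 reads in Ad-Con.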
